A study of Mus musculus with 18 samples.

Results

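The mRNAs of 10 genes from the pocket protein, MYB and MuvB machinery of the cell cycle were followed in cultured mouse cells. The labels name the cells neonatal ventricular cardiac fibroblasts, which make the extracellular matrix of the heart. The 10 genes were taken by gene symbol from the table of expression values. They were Lin9, Lin37, Lin52, Lin54 and Rbbp4 of the MuvB core, Mybl1 and Mybl2 of the MYB family, and the pocket protein genes Rb1, Rbl1 and Rbl2. All 10 were among the 18264 genes listed, and all 10 passed the filter on low values, a mean of at least 1 FPKM (fragments counted on a gene per kilobase of its length and relative to library depth) over the libraries of a fit. The 18 libraries formed 6 groups of 3. In the knockdown arm, cells received siRNA against the cell cycle transcription factor Foxm1 together with the pressor hormone angiotensin II (si-Foxm1+Ang-II), the Foxm1 siRNA alone (si-Foxm1), angiotensin II (Ang-II), or a negative control siRNA (si-NC). In the overexpression arm, cells overexpressed Foxm1 (OE-Foxm1) or carried the negative control for overexpression (OE-NC). No mouse strain, hormone dose, time or vector is given in the labels, and whether a control siRNA was present in the Ang-II group is not stated. Separate cultures or animals behind the libraries of a group are not stated either, so p-values measure only the spread between these libraries, which may be technical.

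The libraries held 14988993 to 19343343 fragments, the OE-NC libraries being the smallest. Foxm1 itself, given as a check of the labels, had 3.03 to 3.55 FPKM in si-Foxm1+Ang-II, 5.13 to 6.71 FPKM in si-Foxm1, 4.03 to 5.65 FPKM in Ang-II and 9.64 to 10.4 FPKM in si-NC, and 399 to 487 FPKM in OE-Foxm1 against 15.7 to 17.1 FPKM in OE-NC. The siRNA thus left 0.59 times the si-NC level, and angiotensin II alone left 0.459 times. Ang-II replicate 3 stood apart from its group: its counts differed from those of the other Ang-II libraries by a mean chi-square of 5.09 and 5.52 per gene, where the other pairs of replicates gave 1.69 to 2.88 and counting error alone gives 1. Results that rest on this library are given with and without it. Markers of other heart cells were present in every group: the summed level of 16 cardiomyocyte markers was 5944 to 6128 FPKM in si-Foxm1+Ang-II, 7784 to 8279 FPKM in si-Foxm1, 10660 to 11688 FPKM in Ang-II and 14285 to 15388 FPKM in si-NC, and 9129 to 9498 FPKM in OE-Foxm1 against 8117 to 8638 FPKM in OE-NC. The 11 macrophage and leukocyte markers summed to 128.1 to 148.3 FPKM in si-Foxm1+Ang-II, 129.9 to 161 FPKM in si-Foxm1, 310.3 to 339.8 FPKM in Ang-II and 254.6 to 260.9 FPKM in si-NC, and 272.9 to 309.5 FPKM in OE-Foxm1 against 189.4 to 208.6 FPKM in OE-NC. Over all libraries the 10 fibroblast markers summed to 3202 to 4594 FPKM, below the cardiomyocyte sum in every group. Mean sums of the fibroblast and cardiomyocyte markers were 3831 and 14825 FPKM in si-NC, and 4048 and 6014 FPKM in si-Foxm1+Ang-II. The 10 endothelial markers summed to 163.9 to 237.4 FPKM and the 8 smooth muscle and pericyte markers to 234.2 to 324.6 FPKM. A sum follows its most abundant markers, and single markers differed. By the test given below, 7 of the 10 fibroblast markers fell with angiotensin II and 2 rose. Of the 10 endothelial markers 8 fell and 0 rose, where 29.2% of all tested genes fell and 15.2% rose. Thy1 had 25.55 to 31.03 FPKM in Ang-II and 112 to 127.8 FPKM in si-NC, and Col1a1 1314 to 1394 FPKM and 718.3 to 755.9 FPKM. In OE-Foxm1, 7 of 9 tested macrophage and leukocyte markers rose and 2 fell, and 8 of 10 fibroblast markers rose and 1 fell. Of all tested genes 27.1% rose and 28.0% fell there. With the siRNA, 14 of 16 cardiomyocyte markers fell and 1 rose, and all 9 tested macrophage and leukocyte markers fell. Of all tested genes 17.2% fell and 48.5% rose in that comparison. No marker of these lists was at 0 in all 3 libraries of a group. The part of cell composition in the results below was not tested, and in bulk RNA fewer cells of a type and less RNA per cell cannot be told apart.

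MuvB is a core of LIN9, LIN37, LIN52, LIN54 and RBBP4 that changes partners through the cell cycle. In resting cells it joins a pocket protein (p130 or p107, the products of Rbl2 and Rbl1) and a repressor E2F with its DP partner, and this assembly, named DREAM, holds cell cycle genes down. When cells enter S phase the pocket protein leaves and B-MYB, the product of Mybl2, and later FOXM1 bind the core, which then activates genes of G2 and mitosis. RB, the product of Rb1, restrains the activator E2Fs by a separate route, and Mybl2 and Rbl1 are textbook targets of E2F. Neonatal cardiac fibroblasts still divide, so both states of MuvB can occur in such a culture.

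The 10 mRNAs covered a wide range of levels. Rbbp4, which encodes a histone-binding protein shared by many chromatin complexes, was the most abundant, with a mean of 47.3 FPKM over the 18 libraries. Rbl2 (9.27 FPKM), Rb1 (8.25 FPKM) and Lin37 (7.87 FPKM) came next, and Mybl1 was the lowest at 1.69 FPKM. The spread between libraries differed by gene: Mybl2 ran from 0.97 to 5.23 FPKM, a 5.4-fold range, and Rbl2 from 8.41 to 10.3 FPKM, a 1.22-fold range. Rbbp4 (1.54-fold), Lin37 (1.51-fold) and Rb1 (1.70-fold), also among the most abundant, had narrow ranges. Most lower genes had wider ones: Mybl1 3.71-fold, Rbl1 3.31-fold, Lin9 3.16-fold and Lin54 2.36-fold. Lin52 was both low and narrow (1.58-fold). Behind these values stood 73 to 354 fragments per library for Mybl2, 114 to 362 for Mybl1, 126 to 203 for Lin37 and 3038 to 4284 for Rbbp4.

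**Figure D1:**
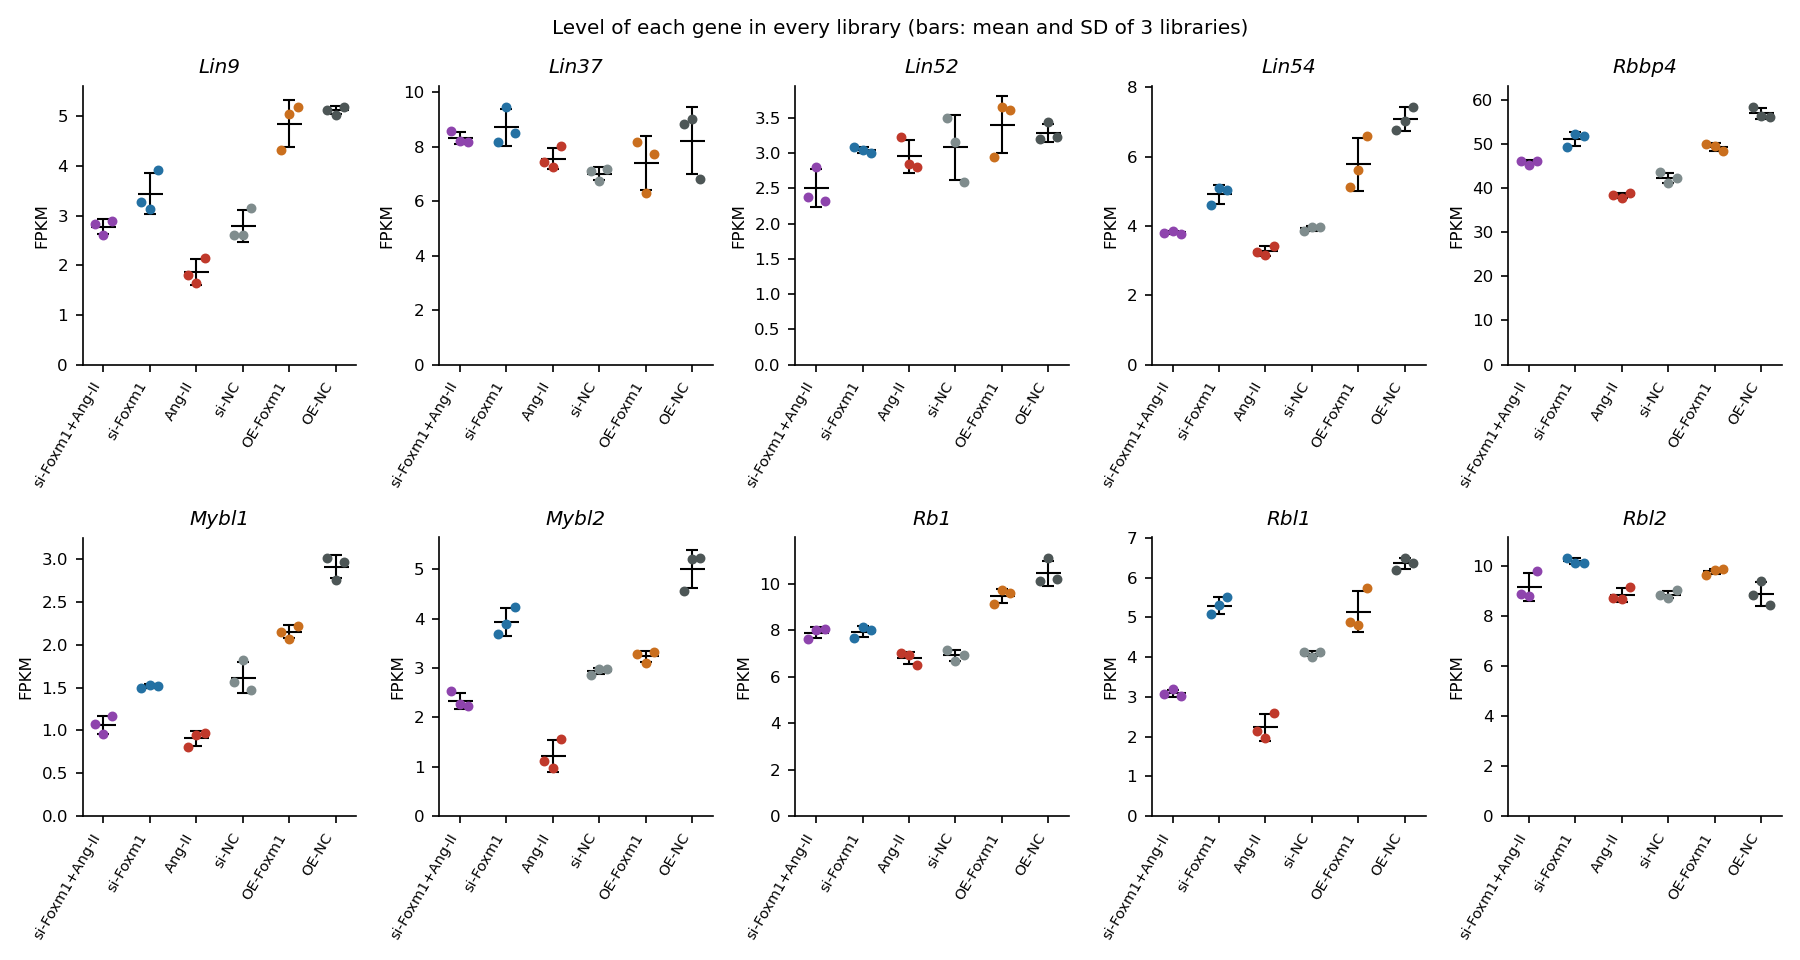
Each panel plots 1 gene, with the level in FPKM on the vertical axis and the 6 groups along the horizontal axis; points are libraries and bars are the mean and SD of 3. Mybl2, Rbl1 and Lin9 have their lowest libraries in Ang-II, and Rbl2, Lin37 and Lin52 vary little by comparison.

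Fold changes are differences in log2(FPKM + 1) ± SE, 3 libraries against 3, a scale that understates the change of low genes; limma fits over all tested genes gave p-values, adjusted by Benjamini-Hochberg, and a gene was called at an adjusted p under 0.05. With the Foxm1 siRNA, 8 of the 10 genes rose, among 11180 tested genes of which 48.5% rose and 17.2% fell; Mybl1 and Lin52 did not pass. With angiotensin II, 6 of the 10 fell, where 29.2% of genes fell and 15.2% rose; Lin37, Lin52, Rb1 and Rbl2 did not pass. Adding the siRNA to angiotensin II raised 6 of the 10 above Ang-II alone, where 44.0% of genes rose and 17.4% fell. Adding angiotensin II to the siRNA lowered 8 of the 10 below si-Foxm1, where 34.6% of genes fell and 12.9% rose. In OE-Foxm1, 6 of the 10 fell and 1 rose relative to OE-NC, where 28.0% of 11259 genes fell and 27.1% rose. In each of these 5 comparisons the share of the 10 genes called in that direction was above the share of all genes, by least with the siRNA under angiotensin; no test of the excess was run.

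The direction of all genes depended on the scaling between libraries, and these counts with it. The median tested gene stood at 0.11 in si-Foxm1 against si-NC, and median-of-ratios scaling moved it to 0.00, which turned 5418 higher and 1924 lower genes into 2954 higher and 3273 lower. Under that scaling 5 of the 10 genes rose with the siRNA (Mybl2, Lin37, Lin54, Rbbp4 and Rbl1). For angiotensin II the split went to 2481 higher and 2424 lower genes, against 1702 and 3268 as deposited, and the same 6 of the 10 fell while Lin37 rose. For the siRNA under angiotensin it went to 3082 higher and 3116 lower genes, against 4918 and 1942, with 4 of the 10 higher and Lin52 lower. For angiotensin under the siRNA it went to 2466 higher and 2267 lower genes, against 1441 and 3873, with 4 of the 10 lower (Mybl1, Mybl2, Lin54 and Rbl1). The overexpression arm kept 6 lower and 1 higher.

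**Figure D2:**
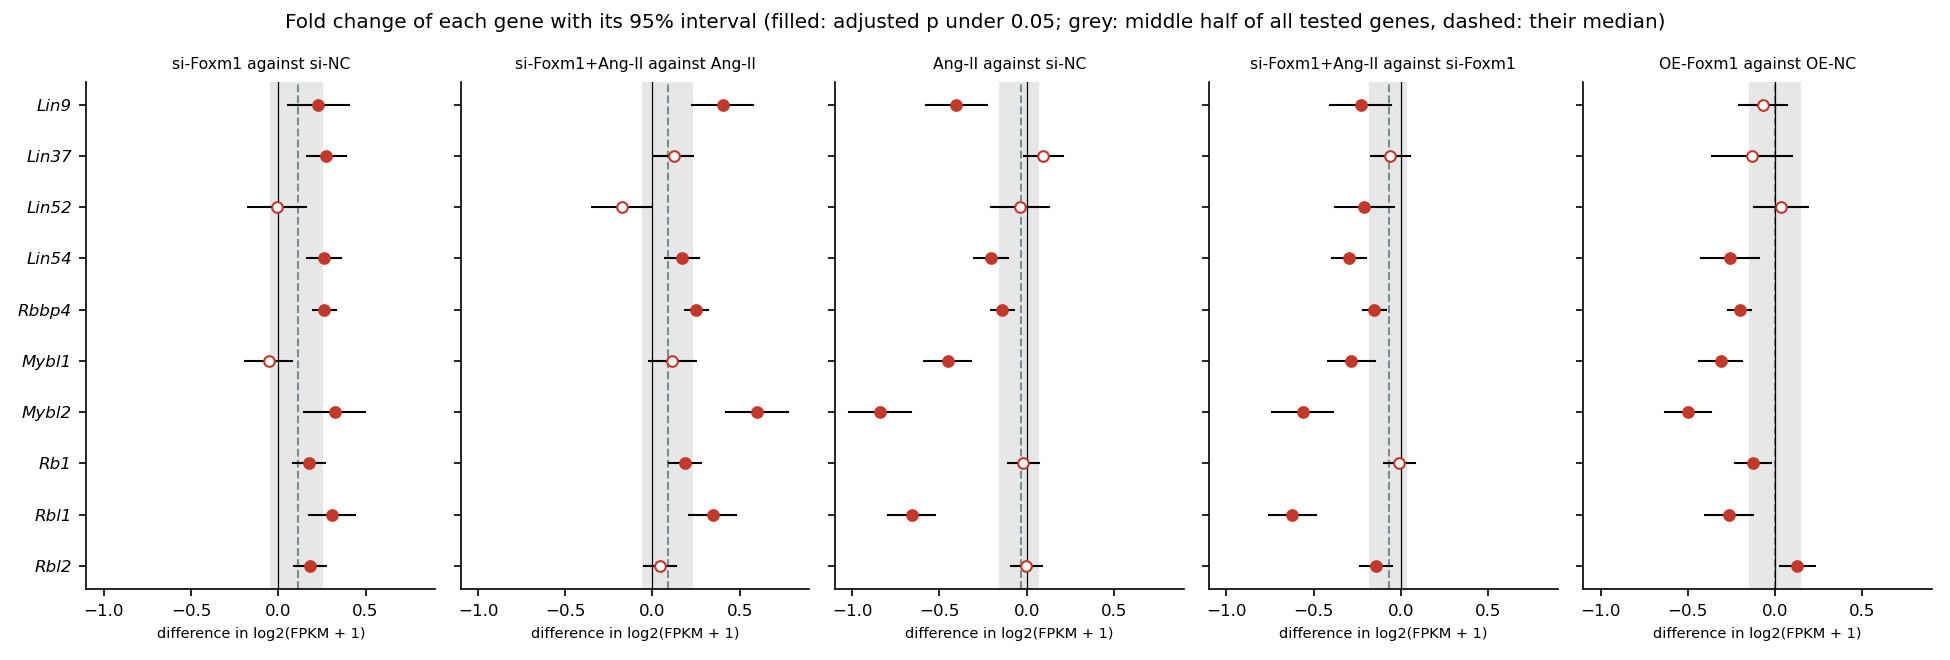
Each panel is 1 comparison, with the difference in log2(FPKM + 1) on the horizontal axis and the 10 genes down the page; points are fold changes with 95% intervals, filled where the adjusted p is under 0.05, the grey band spans the 25th to 75th percentile of all tested genes and the dashed line is their median. Mybl2 and Rbl1 lie farthest from the band with angiotensin II, at -0.84 and -0.66.

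Mybl2, which encodes B-MYB, the activating partner of MuvB, moved in all 5 comparisons, and its direction was opposite with the Foxm1 siRNA and with Foxm1 overexpression. Its promoter window carried an E2F core close to the start, and it is shown for that reason. The window runs from 250 bases before to 50 bases after the start annotated by RefSeq (GRCm38.p6, a different build from the authors' mm39), at chr2:163054385-163054684 on the plus strand, written 5′ to 3′ with the match in capitals.
Mybl2: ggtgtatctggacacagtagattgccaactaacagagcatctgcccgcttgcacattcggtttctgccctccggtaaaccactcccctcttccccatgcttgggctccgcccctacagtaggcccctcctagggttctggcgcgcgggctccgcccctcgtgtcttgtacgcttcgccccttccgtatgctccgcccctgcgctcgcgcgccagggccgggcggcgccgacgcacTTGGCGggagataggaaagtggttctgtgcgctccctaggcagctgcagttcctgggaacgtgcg
The motifs were searched on both strands. An E2F core was counted where the window held TTGGCG, the variant spelled TTCGCG, or else the variant spelled TTCCCG. A cell cycle homology region (CHR), which LIN54 contacts in human cells, was counted where it held TTTGAA or its variant spelled TTCGAA. Of 32851 promoter windows, 21.2% held an E2F core and 19.2% held a CHR. Of the 10 genes 7 had windows (8 in all, since Lin54 had 2), and 6 of those 7 held an E2F core and 3 held a CHR. Counted by window, as the percentages are, 6 of the 8 held an E2F core and 4 held a CHR. The capitals in Mybl2, TTGGCG, lie 15 bases before the start. Mybl1, Lin9 and Rb1 had no window in the table.

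Mybl2 had 2.53, 2.27 and 2.23 FPKM in si-Foxm1+Ang-II, 3.69, 3.89 and 4.24 FPKM in si-Foxm1, 1.12, 0.97 and 1.57 FPKM in Ang-II, and 2.87, 2.98 and 2.98 FPKM in si-NC. No 2 of these 4 groups overlapped: si-Foxm1 was the highest and Ang-II the lowest, with its replicate 3 the nearest to the other groups. Angiotensin II changed Mybl2 by -0.84 ± 0.08 against si-NC (adjusted p = 2.25e-06), and the change was -0.95 without Ang-II replicate 3. In the presence of the siRNA angiotensin changed it by -0.56 ± 0.08 (adjusted p = 8.01e-05). The siRNA raised it by 0.32 ± 0.08 against si-NC (adjusted p = 0.00344) and by 0.60 ± 0.08 against Ang-II alone (adjusted p = 2.94e-05), and by 0.71 over Ang-II without Ang-II replicate 3. In the overexpression arm it had 3.29, 3.11 and 3.32 FPKM in OE-Foxm1, against 4.56, 5.21 and 5.23 FPKM in OE-NC. These groups did not overlap, and the fall was -0.50 ± 0.06 (adjusted p = 5.70e-05).

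Mybl1 encodes A-MYB, best known for its role in the germ line. Its libraries held 1.08, 0.956 and 1.17 FPKM in si-Foxm1+Ang-II, 1.49, 1.53 and 1.52 FPKM in si-Foxm1, 0.811, 0.951 and 0.969 FPKM in Ang-II, and 1.56, 1.82 and 1.47 FPKM in si-NC. The groups without angiotensin lay above both groups with it, whether or not they had the siRNA. Angiotensin II changed Mybl1 by -0.45 ± 0.06 against si-NC (adjusted p = 4.90e-05) and by -0.28 ± 0.06 against si-Foxm1 (adjusted p = 0.00205). As a ratio of mean FPKM, Ang-II had 0.563 times the si-NC level. The siRNA gave -0.06 ± 0.06 against si-NC (adjusted p = 0.448) and 0.11 ± 0.06 against Ang-II (adjusted p = 0.130), and neither passed. OE-Foxm1 libraries had 2.15, 2.07 and 2.22 FPKM, against 3.01, 2.75 and 2.97 FPKM in OE-NC, with no overlap and a change of -0.31 ± 0.06 (adjusted p = 0.000794). The third gene of the family, Myb, was below the filter and not tested, with at most 0.0855 FPKM in any knockdown library, and with 0.0293 to 0.135 FPKM in OE-Foxm1 against 0.353 to 0.639 FPKM in OE-NC.

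Among the pocket protein genes, Rbl1 followed angiotensin, the siRNA and overexpression in the same directions as Mybl2, and Rb1 and Rbl2 changed less. Rbl1 encodes p107, the pocket protein of cycling cells, and Rbl2 encodes p130, the one that dominates in resting cells. Their promoter windows are shown because they hold different motifs: Rbl1 (chr2:157204485-157204784, minus strand, GRCm38.p6) had the E2F core TTCGCG 17 bases before the start and no CHR, and Rbl2 (chr8:91069807-91070106, plus strand) had TTCAAA, a CHR read on the other strand, 201 bases before the start and none of the 3 E2F cores. Matches are in capitals and both are written 5′ to 3′ on the gene's strand.
Rbl1: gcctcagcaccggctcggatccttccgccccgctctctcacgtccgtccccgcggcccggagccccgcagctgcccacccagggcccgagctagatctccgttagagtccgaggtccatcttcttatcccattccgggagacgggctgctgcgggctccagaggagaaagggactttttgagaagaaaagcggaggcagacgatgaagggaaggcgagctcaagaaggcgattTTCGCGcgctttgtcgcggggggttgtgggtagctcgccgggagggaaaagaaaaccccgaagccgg
Rbl2: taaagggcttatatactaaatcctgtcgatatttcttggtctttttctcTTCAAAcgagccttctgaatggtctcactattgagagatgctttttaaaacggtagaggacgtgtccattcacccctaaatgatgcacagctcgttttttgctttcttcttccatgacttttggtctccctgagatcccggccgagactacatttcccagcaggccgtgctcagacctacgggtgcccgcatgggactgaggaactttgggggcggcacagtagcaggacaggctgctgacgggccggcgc
A match is a run of letters, not a bound site.

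Rbl1 had 3.07, 3.19 and 3.02 FPKM in si-Foxm1+Ang-II, 5.08, 5.3 and 5.51 FPKM in si-Foxm1, 2.14, 1.96 and 2.6 FPKM in Ang-II, and 4.12, 4.01 and 4.14 FPKM in si-NC. All 4 groups were separate, in the same order as for Mybl2. Angiotensin II changed it by -0.66 ± 0.06 against si-NC (adjusted p = 1.61e-06; -0.74 without Ang-II replicate 3) and by -0.62 ± 0.06 against si-Foxm1 (adjusted p = 3.06e-06). The siRNA raised it by 0.31 ± 0.06 against si-NC (adjusted p = 0.000686) and by 0.34 ± 0.06 against Ang-II (adjusted p = 0.000302; 0.42 without Ang-II replicate 3). In OE-Foxm1 it had 4.88, 4.8 and 5.74 FPKM, against 6.2, 6.49 and 6.38 FPKM in OE-NC. The groups did not overlap, and the change was -0.26 ± 0.06 (adjusted p = 0.00421).

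Rbl2 had 8.85, 8.79 and 9.79 FPKM in si-Foxm1+Ang-II, 10.3, 10.1 and 10.1 FPKM in si-Foxm1, 8.69, 8.67 and 9.16 FPKM in Ang-II, and 8.83, 8.7 and 9.01 FPKM in si-NC. Only si-Foxm1 stood clear of the other 3 groups of this arm, which overlapped. The siRNA raised Rbl2 by 0.18 ± 0.04 (adjusted p = 0.00174), a call lost under median-of-ratios scaling (0.06, adjusted p = 0.209). Angiotensin II gave -0.00 ± 0.04 against si-NC (adjusted p = 0.984), with a 95% interval of -0.09 to 0.09, and the siRNA gave 0.04 ± 0.04 against Ang-II (adjusted p = 0.398). Against si-Foxm1 angiotensin gave -0.14 ± 0.04 (adjusted p = 0.0130), which did not pass without si-Foxm1+Ang-II replicate 1 (-0.12, adjusted p = 0.0540) or replicate 2 (-0.12, adjusted p = 0.0599) or once scaled by median of ratios (-0.07, adjusted p = 0.222). Rbl2 was the only one of the 10 called higher in OE-Foxm1, with 9.64, 9.82 and 9.85 FPKM against 8.81, 9.37 and 8.41 FPKM in OE-NC. The groups did not overlap, but the change of 0.13 ± 0.05 (adjusted p = 0.0355) did not pass without OE-Foxm1 replicate 1, 2 or 3 (adjusted p = 0.0629, 0.0839 and 0.0786) or without OE-NC replicate 1 or 3 (adjusted p = 0.0801 and 0.133). Nor did it pass with no filter on low values (adjusted p = 0.0543).

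Rb1, the retinoblastoma gene, had 7.63, 7.99 and 8.05 FPKM in si-Foxm1+Ang-II, 7.68, 8.15 and 7.99 FPKM in si-Foxm1, 7, 6.92 and 6.51 FPKM in Ang-II, and 7.15, 6.66 and 6.94 FPKM in si-NC. Within this arm the groups with the siRNA lay above those without it, and angiotensin made no separation. The siRNA raised Rb1 by 0.18 ± 0.04 against si-NC (adjusted p = 0.00222) and by 0.19 ± 0.04 against Ang-II (adjusted p = 0.00161). Median-of-ratios scaling ended both calls, at 0.06 (adjusted p = 0.253) and 0.10 (adjusted p = 0.0681). Angiotensin gave -0.02 ± 0.04 against si-NC (adjusted p = 0.745) and -0.01 ± 0.04 against si-Foxm1 (adjusted p = 0.890). OE-Foxm1 libraries had 9.14, 9.72 and 9.6 FPKM, against 10.1, 11.1 and 10.2 FPKM in OE-NC, without overlap. That fall of -0.13 ± 0.05 (adjusted p = 0.0437) did not pass without OE-Foxm1 replicate 1, 2 or 3 (adjusted p = 0.146, 0.0555 and 0.0663) or without OE-NC replicate 2 or 3 (adjusted p = 0.158 and 0.0558). It was also lost under quantile normalization (adjusted p = 0.0515), with a minimum of 0.1 FPKM (adjusted p = 0.0516) and with no filter on low values (adjusted p = 0.069). In GENCODE M21, exons of Rb1 share 488 bases with Rcbtb2 and 408 bases with Lpar6, and those of Rbl2 share 693 bases with Aktip, each on the opposite strand. The library kit is stranded, but the strand setting used in counting is not given in the sources used here, and without strand the fragments of the shared bases could not be told apart.

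The balance of the p107 and p130 mRNAs does not depend on scaling between libraries, since both levels come from the same library. Rbl1 over Rbl2, as a ratio of FPKM, was 0.346, 0.363 and 0.308 in si-Foxm1+Ang-II, 0.493, 0.522 and 0.546 in si-Foxm1, 0.246, 0.226 and 0.284 in Ang-II, and 0.467, 0.461 and 0.459 in si-NC. Among these 4 groups it was lowest in Ang-II and highest in si-Foxm1, and none of them overlapped. In OE-Foxm1 it was 0.506, 0.489 and 0.583, against 0.705, 0.692 and 0.758 in OE-NC, again without overlap. Mybl2 over Mybl1 was 1.91 to 2.38 in si-Foxm1+Ang-II, 2.48 to 2.79 in si-Foxm1, 1.02 to 1.62 in Ang-II and 1.64 to 2.03 in si-NC. For this ratio si-Foxm1+Ang-II and si-NC overlapped, as did OE-Foxm1 (1.49 to 1.53) and OE-NC (1.51 to 1.89). No test was run on the ratios.

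**Figure D3:**
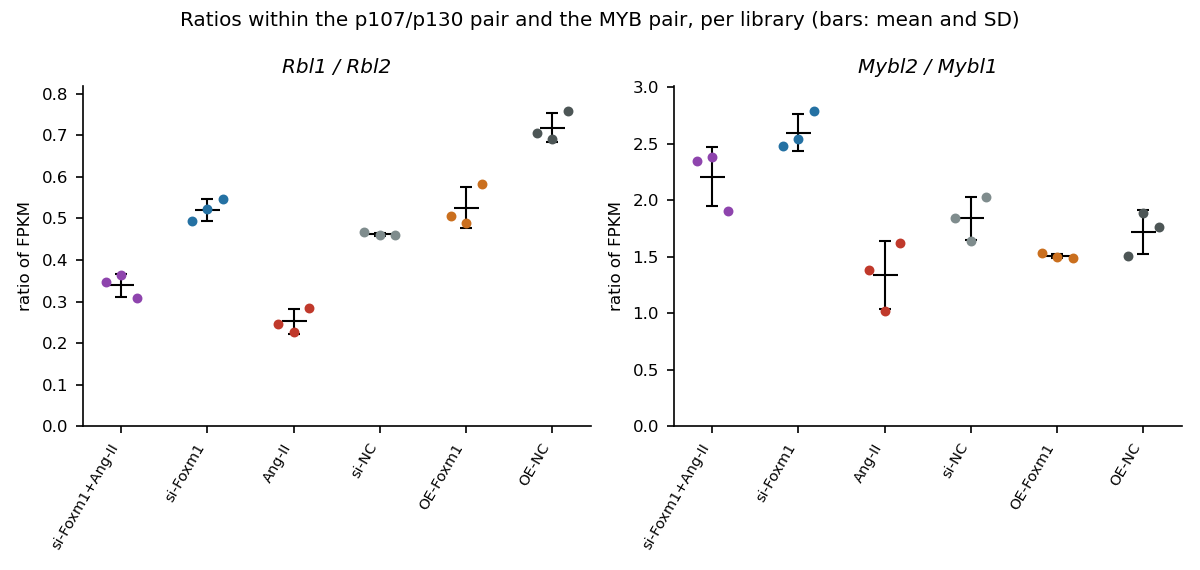
The vertical axes give the ratio of FPKM of Rbl1 to Rbl2 (left) and of Mybl2 to Mybl1 (right), with the 6 groups along the horizontal axes; points are libraries and bars are the mean and SD of 3. Rbl1 over Rbl2 averages 0.252 in Ang-II and 0.462 in si-NC, and 0.526 in OE-Foxm1 and 0.718 in OE-NC.

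Within the MuvB core, Lin54, Lin9 and Rbbp4 moved with the siRNA and with angiotensin in the directions of Mybl2 and Rbl1, and Lin37 and Lin52 passed the test in 1 comparison each. Lin54 encodes the DNA-binding subunit. RefSeq gives it 2 starts, and the windows of both held the CHR that its own product contacts in human cells: the start nearer the gene body (chr5:100498524-100498823, minus strand, GRCm38.p6) had TTTGAA 162 bases before it, TTGGCG 154 bases before it and TTCGAA 29 bases after it. The window upstream (chr5:100500590-100500889, minus strand) had TTTGAA 40 bases after its start. These are shown 5′ to 3′ with those matches in capitals.
Lin54 inner start: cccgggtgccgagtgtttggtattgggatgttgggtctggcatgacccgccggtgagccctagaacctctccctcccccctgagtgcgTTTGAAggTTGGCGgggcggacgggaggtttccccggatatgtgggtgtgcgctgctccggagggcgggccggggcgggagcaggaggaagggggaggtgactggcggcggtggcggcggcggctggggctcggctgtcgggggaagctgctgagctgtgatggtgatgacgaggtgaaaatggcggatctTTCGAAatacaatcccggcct
Lin54 outer start: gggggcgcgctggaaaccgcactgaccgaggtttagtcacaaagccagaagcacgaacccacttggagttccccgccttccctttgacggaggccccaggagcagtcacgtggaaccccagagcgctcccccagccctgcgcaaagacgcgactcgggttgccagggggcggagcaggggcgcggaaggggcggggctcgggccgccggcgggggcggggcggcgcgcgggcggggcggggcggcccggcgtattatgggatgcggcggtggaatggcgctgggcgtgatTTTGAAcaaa
The other windows held E2F cores in Rbbp4 (TTGGCG and CGCGAA, which overlap, 15 and 11 bases before the start), Lin52 (TTCCCG, 26 bases before) and Lin37 (CGGGAA 124 bases before and CGCCAA 17 bases after), and Lin37 also held TTTGAA 197 bases before.

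Lin54 had 3.81, 3.86 and 3.76 FPKM in si-Foxm1+Ang-II, 4.6, 5.1 and 5.05 FPKM in si-Foxm1, 3.25, 3.16 and 3.43 FPKM in Ang-II, and 3.86, 3.96 and 3.96 FPKM in si-NC. Within this arm Ang-II was the lowest group and si-Foxm1 the highest, and si-Foxm1+Ang-II reached the lowest si-NC library. The siRNA raised Lin54 by 0.26 ± 0.05 against si-NC (adjusted p = 2e-04) and by 0.17 ± 0.05 against Ang-II (adjusted p = 0.00523), which did not pass under median-of-ratios scaling (0.09, adjusted p = 0.0878). Angiotensin gave -0.20 ± 0.05 against si-NC (adjusted p = 0.00240; -0.23 without Ang-II replicate 3) and -0.30 ± 0.05 against si-Foxm1 (adjusted p = 0.000126). OE-Foxm1 had 5.11, 5.62 and 6.6 FPKM, against 6.76, 7.02 and 7.44 FPKM in OE-NC. These did not overlap, and the change of -0.26 ± 0.07 (adjusted p = 0.0131) missed the threshold without OE-Foxm1 replicate 1 (-0.18, adjusted p = 0.0513).

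Lin9 encodes the scaffold subunit that links the core to B-MYB. Its libraries had 2.83, 2.61 and 2.89 FPKM in si-Foxm1+Ang-II, 3.27, 3.13 and 3.91 FPKM in si-Foxm1, 1.8, 1.64 and 2.15 FPKM in Ang-II, and 2.61, 2.6 and 3.15 FPKM in si-NC. Ang-II stood below the other 3 groups, which overlapped in part. Angiotensin II changed Lin9 by -0.40 ± 0.08 against si-NC (adjusted p = 0.00118; -0.47 without Ang-II replicate 3), and the siRNA raised it by 0.40 ± 0.08 against Ang-II (adjusted p = 0.000758; 0.47 without that library). The siRNA change against si-NC, 0.23 ± 0.08 (adjusted p = 0.0240), did not pass without si-Foxm1 replicate 3 (0.15, adjusted p = 0.121) or without si-NC replicate 1 or 2 (adjusted p = 0.0833 and 0.0859), nor under median-of-ratios scaling (0.13, adjusted p = 0.191). The angiotensin change against si-Foxm1, -0.23 ± 0.08 (adjusted p = 0.0323), did not pass without si-Foxm1 replicate 3 (-0.15, adjusted p = 0.147) or without si-Foxm1+Ang-II replicate 1 or 2 (adjusted p = 0.0562 and 0.106), nor under that scaling (-0.17, adjusted p = 0.118). OE-Foxm1 had 4.32, 5.05 and 5.18 FPKM, against 5.13, 5.03 and 5.19 FPKM in OE-NC, which overlapped (-0.07 ± 0.06, adjusted p = 0.372).

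Rbbp4 varied little in relative terms and with small error. Libraries had 46.1, 45.3 and 46.1 FPKM in si-Foxm1+Ang-II, 49.2, 52.1 and 51.8 FPKM in si-Foxm1, 38.3, 37.8 and 38.9 FPKM in Ang-II, and 43.5, 41.2 and 42.2 FPKM in si-NC. All 4 groups were separate. The siRNA raised Rbbp4 by 0.26 ± 0.03 against si-NC (adjusted p = 5.25e-06) and by 0.25 ± 0.03 against Ang-II (adjusted p = 9.21e-06). Angiotensin gave -0.14 ± 0.03 against si-NC (adjusted p = 0.00203) and -0.15 ± 0.03 against si-Foxm1 (adjusted p = 0.000968), which median-of-ratios scaling moved to -0.07 (adjusted p = 0.0595). In OE-Foxm1 it had 50, 49.5 and 48.4 FPKM, against 58.4, 56.2 and 56 FPKM in OE-NC, with no overlap and a change of -0.20 ± 0.03 (adjusted p = 0.000285). Its exons share 782 bases with Sync on the opposite strand in GENCODE M21.

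Lin37, whose product is needed for repression by DREAM, rose with the siRNA. It had 8.56, 8.22 and 8.16 FPKM in si-Foxm1+Ang-II, 8.16, 9.47 and 8.52 FPKM in si-Foxm1, 7.43, 7.26 and 8.01 FPKM in Ang-II, and 7.12, 6.74 and 7.18 FPKM in si-NC. Within this arm every siRNA library lay above every library without the siRNA, and Ang-II lay above si-NC. The siRNA change was 0.28 ± 0.05 against si-NC (adjusted p = 0.000395). Against Ang-II it was 0.12 ± 0.05 (adjusted p = 0.0577), which passed without Ang-II replicate 3 (0.16, adjusted p = 0.0235) and without si-Foxm1 replicate 1 or 2 (adjusted p = 0.0477 and 0.0299). Angiotensin gave 0.10 ± 0.05 against si-NC (adjusted p = 0.156), which passed once scaled by median of ratios (0.14, adjusted p = 0.0287). Against si-Foxm1 it gave -0.06 ± 0.05 (adjusted p = 0.372). OE-Foxm1 ranged from 6.29 to 8.19 FPKM and OE-NC from 6.81 to 9.01 FPKM, a difference of -0.13 ± 0.10 (adjusted p = 0.305). It passed without OE-NC replicate 3 (-0.25, adjusted p = 0.0372).

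Lin52 encodes the subunit that DYRK1A phosphorylates in human cells when DREAM assembles. It had 2.38, 2.81 and 2.32 FPKM in si-Foxm1+Ang-II, 3.09, 3.04 and 3 FPKM in si-Foxm1, 3.23, 2.85 and 2.8 FPKM in Ang-II, and 3.5, 3.16 and 2.59 FPKM in si-NC. Within this arm only si-Foxm1+Ang-II and si-Foxm1 were apart, by -0.21 ± 0.08 (adjusted p = 0.0410). That call was lost without si-Foxm1+Ang-II replicate 1 or 3 (adjusted p = 0.115 and 0.140), si-Foxm1 replicate 1, 2 or 3 (adjusted p = 0.0970, 0.0848 and 0.0714) or si-NC replicate 2 (adjusted p = 0.0504), and under median-of-ratios scaling (-0.15, adjusted p = 0.152). The siRNA gave -0.01 ± 0.08 against si-NC (adjusted p = 0.941), and -0.18 ± 0.08 against Ang-II (adjusted p = 0.0635). The change against Ang-II passed without si-Foxm1+Ang-II replicate 2 (-0.24, adjusted p = 0.0244), without si-NC replicate 1 or 3 (adjusted p = 0.0438 and 0.0283) and under median-of-ratios scaling (-0.25, adjusted p = 0.0147). Angiotensin gave -0.04 ± 0.08 against si-NC (adjusted p = 0.719). OE-Foxm1 ranged from 2.94 to 3.66 FPKM and OE-NC from 3.2 to 3.44 FPKM (0.03 ± 0.07, adjusted p = 0.697).

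The siRNA effect with angiotensin was set against the effect without it by the interaction term. None of the 10 genes was called by limma, where 0.921% of tested genes (103) were. At an unadjusted p under 0.05 there were 2 of the 10 and 1603 of 11180 genes, and voom on recovered counts called 229 genes and 0 of the 10. The 2 were Mybl2, with a difference of 0.28 ± 0.12 (adjusted p = 0.297; 95% interval 0.03 to 0.53), and Rbl2, with -0.14 ± 0.06 (adjusted p = 0.302). Mybl2 passed without Ang-II replicate 3, at 0.39 (adjusted p = 0.0395). For Rbl1 the difference was 0.04 ± 0.09 (adjusted p = 0.899), with a 95% interval of -0.15 to 0.23.

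Comparisons that share no library can be set side by side. Of the 10 genes 5, Mybl2, Lin54, Rbbp4, Rb1 and Rbl1, rose with the siRNA and fell with overexpression, as did 15.6% of the 11021 genes tested in both arms. Under median-of-ratios scaling Rb1 dropped out, leaving 4 of the 10 against 8.99% of genes. None of the 10 fell with the siRNA and rose with overexpression, as 6.62% of genes did. Another set of 5, Mybl1, Mybl2, Lin54, Rbbp4 and Rbl1, fell both with angiotensin II against si-NC and with Foxm1 overexpression, as did 9.74% of genes, and the same 5 did under median-of-ratios scaling (7.24% of genes). The control libraries of the arms also differed: mean levels of all 10 genes were higher in OE-NC than in si-NC, and 7 did not overlap (Mybl1, Mybl2, Lin9, Lin54, Rbbp4, Rb1 and Rbl1), where 43.9% of 11216 genes had OE-NC higher without overlap. OE-Foxm1 lay above si-NC in Mybl2 as well, at 3.11 to 3.32 FPKM against 2.87 to 2.98 FPKM. Arm, delivery and batch cannot be told apart between these controls.

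The E2F and DP genes, partners of the pocket proteins, fell with angiotensin II and with overexpression more often than they rose. Of 9 tested, 5 fell with angiotensin (median -0.15, all genes -0.03), where 29.2% of all tested genes fell. The 5 were led by E2f8 (-0.94 ± 0.09, adjusted p = 2.19e-06) and E2f7 (-0.62 ± 0.07, adjusted p = 6.81e-06), both atypical repressors, and by the activator E2f1 (-0.42 ± 0.05, adjusted p = 5.86e-06). The siRNA raised 5 of the 9 above Ang-II alone and lowered 0, where 44.0% of all tested genes rose and 17.4% fell. With median-of-ratios scaling 2 of the 9 were higher and 0 lower. E2f8 changed by 0.60 ± 0.09 (adjusted p = 6.95e-05) and the repressor E2f6 by 0.43 ± 0.04 (adjusted p = 1.91e-06). Without angiotensin the siRNA raised 2, E2f6 and E2f8, where 48.5% of all tested genes rose. With median-of-ratios scaling 1 of the 9 was higher and 1 lower, and only 1 rose without si-Foxm1 replicate 3 or without si-NC replicate 2. In OE-Foxm1 6 of 9 fell, where 28.0% of all tested genes fell. Among the 6 were E2f7 (-0.70 ± 0.05, adjusted p = 1.90e-06), E2f6 (-0.53 ± 0.04, adjusted p = 5.13e-06) and Tfdp1, the main DP subunit (-0.45 ± 0.03, adjusted p = 3.82e-06). E2f4, the usual E2F of DREAM, had 19.5 to 21 FPKM in si-Foxm1+Ang-II, 18.7 to 20.5 FPKM in si-Foxm1, 17.4 to 18.5 FPKM in Ang-II and 16.5 to 19.4 FPKM in si-NC. Its siRNA change of 0.10 ± 0.05 against si-NC did not pass (adjusted p = 0.116). Against Ang-II the siRNA raised E2f4 by 0.15 ± 0.05 (adjusted p = 0.02), a call lost under median-of-ratios scaling (0.06, adjusted p = 0.359). It had 19 to 20.7 FPKM in OE-Foxm1 against 21.1 to 24.3 FPKM in OE-NC, a change of -0.20 ± 0.05 (adjusted p = 0.00786).

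A list of 9 held cyclins and kinases that phosphorylate pocket proteins, together with Dyrk1a. Of these 8 fell with angiotensin II, where 29.2% of all tested genes fell, and 7 with angiotensin under the siRNA, where 34.6% fell. The first count was 9 without Ang-II replicate 3, 7 to 9 with each library left out and 7 under median-of-ratios scaling. Dyrk1a was the 1 not called with angiotensin (-0.08 ± 0.04, adjusted p = 0.133). The cyclin D gene Ccnd1 had 23.8 to 24.6 FPKM in si-Foxm1+Ang-II, 61.8 to 64.5 FPKM in si-Foxm1, 19.2 to 25.2 FPKM in Ang-II and 51.7 to 52.9 FPKM in si-NC, a change of -1.26 ± 0.07 with angiotensin (adjusted p = 1.68e-08) and -1.36 ± 0.07 under the siRNA (adjusted p = 9.33e-09). The siRNA raised 5 of 9 and lowered 1, where 48.5% of all tested genes rose and 17.2% fell. With median-of-ratios scaling the counts in the list were 1 higher and 2 lower. The rise of Ccne1, a cyclin E gene, was 0.50 ± 0.09 against si-NC (adjusted p = 0.000264) and 0.72 ± 0.09 against Ang-II (adjusted p = 1.26e-05). In OE-Foxm1 6 fell and 2 rose, where 28.0% of all tested genes fell and 27.1% rose. Both cyclin E genes fell, Ccne2 by -1.31 ± 0.04 (adjusted p = 4.22e-09) and Ccne1 by -0.71 ± 0.05 (adjusted p = 1.24e-06). Dyrk1a, the kinase of LIN52, rose with the siRNA by 0.20 ± 0.04 (adjusted p = 0.000690; 0.08, adjusted p = 0.109 under median-of-ratios scaling).

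CDK inhibitors, which keep those kinases off the pocket proteins, did not move as a block. With the siRNA 2 of 7 rose and 2 fell (0 and 4 under median-of-ratios scaling), where 48.5% of all tested genes rose and 17.2% fell. The number of the 7 that rose was 0 without si-Foxm1 replicate 3, and 1 without si-Foxm1 replicate 2, si-NC replicate 2 or si-NC replicate 3. The falls were Cdkn1a (-0.47 ± 0.06, adjusted p = 1.90e-05) and Cdkn2d (-0.58 ± 0.09, adjusted p = 6.71e-05). With angiotensin II 4 fell, where 29.2% of all tested genes did, most by p Cdkn2c (-0.94 ± 0.08, adjusted p = 4.14e-07), and Cdkn2b rose by 0.62 ± 0.07 (adjusted p = 6.83e-06). Under the siRNA angiotensin raised Cdkn2b by 0.71 ± 0.07 (adjusted p = 2.34e-06) and lowered 4, where 12.9% of all tested genes rose and 34.6% fell. In OE-Foxm1 2 of the 7 rose and 2 fell, near the shares of all tested genes (27.1% and 28.0%). Among them were Cdkn1b at 0.26 ± 0.03 (adjusted p = 0.000111) and Cdkn1c at -0.42 ± 0.06 (adjusted p = 0.000122).

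Genes that E2F and DREAM control at G1/S moved largely as a block. Of 30, all 30 fell with angiotensin II (median -0.76) and 26 rose with the siRNA (median 0.38; with median-of-ratios scaling 23 higher and 2 lower). The siRNA raised 29 above Ang-II alone (median 0.57), angiotensin lowered 29 below si-Foxm1 (median -0.57), and 27 fell and 1 rose in OE-Foxm1 (median -0.38). Of all tested genes 29.2% fell with angiotensin and 48.5% rose with the siRNA. With the siRNA under angiotensin 44.0% rose, with angiotensin under the siRNA 34.6% fell, and in OE-Foxm1 28.0% fell. Uhrf1, a maintenance methylation factor, changed by -1.27 ± 0.09 with angiotensin (adjusted p = 1.67e-07), and the replication helicase genes Mcm6 and Mcm2 fell by -0.64 ± 0.03 (adjusted p = 2.37e-07) and -0.49 ± 0.03 (adjusted p = 1.16e-06) in OE-Foxm1. Of 35 G2/M genes, the targets of B-MYB and FOXM1 with MuvB, 35 fell with angiotensin (median -1.09) and 33 rose with the siRNA under angiotensin (median 0.58). The siRNA alone raised 23 and lowered 1 (median 0.28; 14 and 1 under median-of-ratios scaling), with Bub1b, a spindle checkpoint kinase, at 0.63 ± 0.07 (adjusted p = 5.87e-06). In OE-Foxm1 17 of them fell and 3 rose (median -0.12), with Prc1, a midzone protein, at -0.44 ± 0.05 (adjusted p = 3.68e-05) and the centromere histone Cenpa at 0.36 ± 0.04 (adjusted p = 1.94e-05). The interaction called 5 G2/M genes, among them Cdca8 (0.42 ± 0.07, adjusted p = 0.0137) and Aurka (0.40 ± 0.07, adjusted p = 0.0216), and called 19 without Ang-II replicate 3. It called 0 without si-Foxm1+Ang-II replicate 2, 3 and 2 without replicates 1 and 3 of that group, 1 and 2 without si-Foxm1 replicates 1 and 2, and 1 without si-NC replicate 1 or 3. Of the G1/S genes it called 0 of 30, with 7 higher without Ang-II replicate 3 and 2 higher without si-Foxm1 replicate 3.

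**Figure D4:**
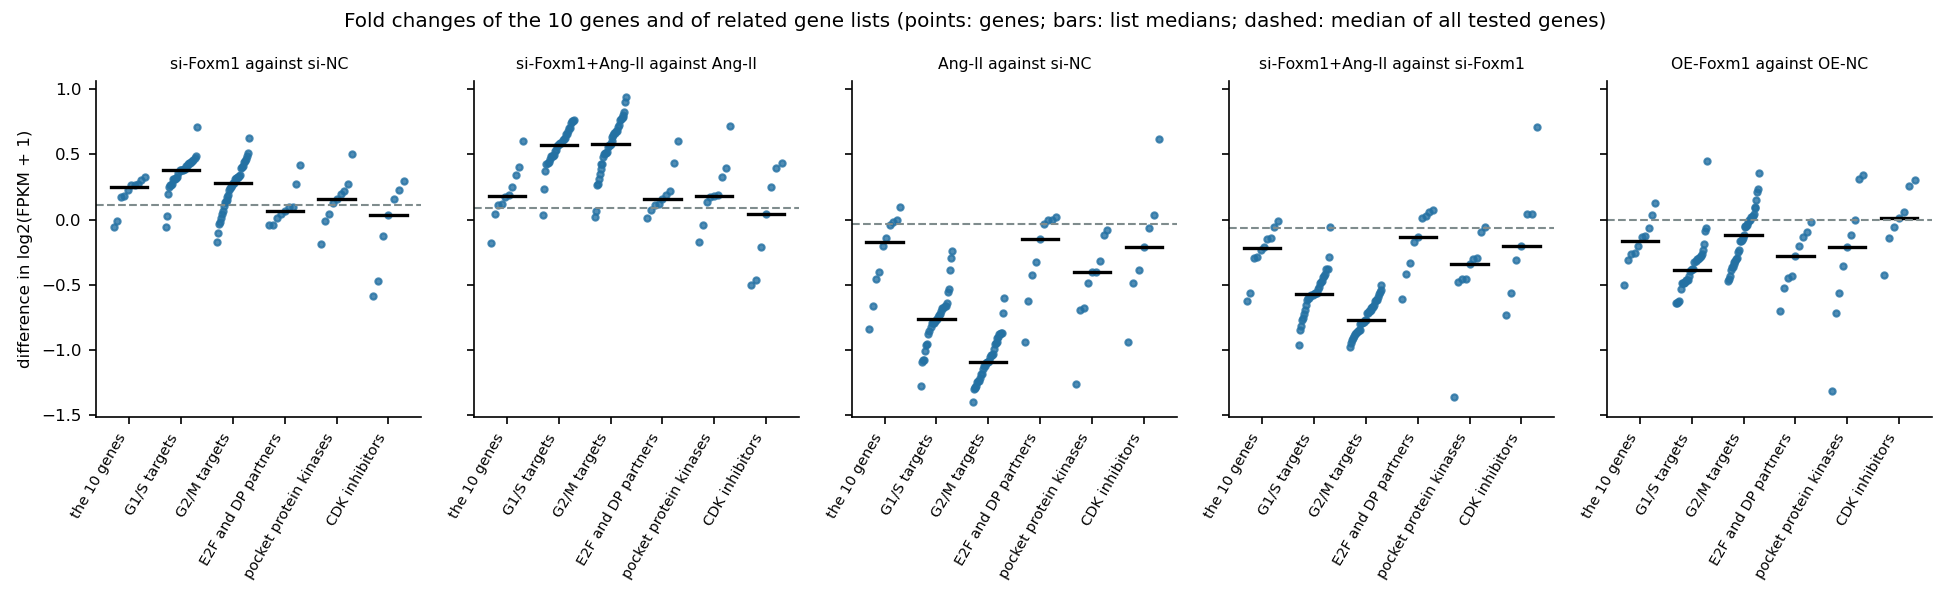
Each panel is 1 comparison, with the difference in log2(FPKM + 1) on the vertical axis; points are the tested genes of each list, sorted by value, bars are list medians and the dashed line is the median of all tested genes. With angiotensin II the G2/M list has a median of -1.09, the G1/S list -0.76 and the 10 genes -0.17.

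Most partners of RBBP4 in other chromatin complexes rose with the siRNA, as Rbbp4 did. Of 12, 9 rose with the siRNA (with median-of-ratios scaling 7 higher and 2 lower), 9 rose with the siRNA under angiotensin (with that scaling 6 higher and 3 lower), and 7 fell and 2 rose in OE-Foxm1. Of all tested genes 48.5% rose with the siRNA and 44.0% with the siRNA under angiotensin, and 28.0% fell and 27.1% rose in OE-Foxm1. The 2 partners that rose in OE-Foxm1 became 1 without OE-Foxm1 replicate 2 and 0 without OE-Foxm1 replicate 3 or OE-NC replicate 2. Rbbp7, the paralogue of Rbbp4, rose by 0.48 ± 0.02 with the siRNA (adjusted p = 3.25e-09), against 0.26 for Rbbp4. Ezh2, the methyltransferase of Polycomb complex PRC2, rose by 0.46 ± 0.06 (adjusted p = 3.03e-05) and fell in OE-Foxm1 by -0.58 ± 0.04 (adjusted p = 2.37e-06).

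For the genes with a called change of at least 0.5, Mybl2 and Rbl1, the nearest patterns were sought among 11020 other genes. The cut is on log2(FPKM + 1), so it depends on the level as well as on the change. With angiotensin II the Ang-II mean was 0.546 times the si-NC mean for Rbl1 and 0.563 times for Mybl1, which missed the cut. Likeness was the root mean square difference of log2(FPKM + 1) over the 18 libraries, after centring each gene within each arm. Nearest to Mybl2, whose own values spread by 0.385 about their mean, were Slfn9 (0.0483), Mcm2 (0.0702) and Mcm6 (0.0791). Nearest to Rbl1, with a spread of 0.311, were Brip1 (0.0591), Hmgn2 (0.0622) and Cenpi (0.0633). Slfn9 had means of 1.84 FPKM in si-Foxm1+Ang-II, 3.42 FPKM in si-Foxm1, 0.991 FPKM in Ang-II, 2.42 FPKM in si-NC, 3.95 FPKM in OE-Foxm1 and 6.05 FPKM in OE-NC.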

How the data were processed

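RNA was extracted with the mirVana kit and made into TruSeq stranded mRNA libraries, per the labels' protocols. Reads were processed with fastp, HISAT2 and HTSeq on mouse build mm39, per the submitters' processing notes; no source used here gives versions, annotation or strand setting. The authors deposited FPKM, with 1 column per library. Ratios of FPKM between libraries gave back whole fragment counts and depths: all 17960 genes above 0 came out whole within 0.02. The groups were read from the labels, and every column had a sample.

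Analysis used R 4.3.3 with limma 3.58.1 and Python 3.11.15 with pandas 2.3.3. log2(FPKM + 1) entered limma with eBayes and a mean-variance trend, without further scaling, 12 knockdown libraries in a fit and 6 overexpression libraries in another. Genes with a mean of at least 1 FPKM were tested and p-values adjusted by Benjamini-Hochberg over all of them. The interaction was (si-Foxm1+Ang-II minus Ang-II) minus (si-Foxm1 minus si-NC). The scripts were tested on simulated data. The alternatives tried were 0.1 as pseudocount, 0.1 FPKM or no minimum as filter, scaling by median of ratios or by quantiles, fits to all 6 groups or to the compared pair alone, a replicate block, voom on the recovered counts (which called 229 genes in the interaction) and each library left out.

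The 10 genes are named in every comparison. From each gene list, counts are given and up to 4 genes with the smallest p in a comparison may be named; Myb falls outside this rule and was named after its values were seen. Genes of like pattern are the 3 nearest to each of the 10 with a called change of at least 0.5. The members and lists were chosen with earlier results of these data known. Promoter windows are from RefSeq on GRCm38.p6, and exon overlaps from GENCODE M21.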

Additional observations from a re-analysis of the deposited data

How the results depend on the processing

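Over all alternatives 0 called fold changes of the 10 genes changed sign; 1083 values kept direction and side of the threshold, 49 lost a call and 13 gained one. A further 34 changed sign with no call in either fit, 13 of them by scaling. Median-of-ratios scaling and quantile normalization gave 0.0257 and 0.0313 for Rb1 and 0.0445 and 0.0608 for Rbl2 with angiotensin, -0.0471 and -0.0568 for Rbl2 with the siRNA under angiotensin, 0.0139 and 0.00365 for Lin37 and 0.0641 and 0.0662 for Rb1 with angiotensin under the siRNA, and 0.0171 and 0.00565 for Rbbp4 in the interaction. Quantile normalization gave 0.0589 for Lin52 with angiotensin. Leaving out each library gave ranges across 0 for Lin52 with the siRNA (-0.0969 to 0.0656), with angiotensin (-0.128 to 0.0343) and with overexpression (-0.00786 to 0.113). Other such ranges were -0.0426 to 0.00895 for Rb1 and -0.0250 to 0.0112 for Rbl2 with angiotensin, -0.00272 to 0.0675 for Rbl2 with the siRNA under angiotensin, and -0.0294 to 0.0131 for Rb1 with angiotensin under the siRNA. In the interaction they were -0.0390 to 0.00510 for Rbbp4, -0.0172 to 0.0343 for Rb1 and -0.0239 to 0.118 for Rbl1. Of the 10 genes, 5 were called with the siRNA against si-NC under median-of-ratios scaling and 5 under quantile normalization, in place of 8. Of all tested genes 6227 and 6395 were called, in place of 7342. With angiotensin under the siRNA, 4 of the 10 were called under median-of-ratios scaling and 5 under quantile normalization, in place of 8, and leaving out each library gave 5 to 8. Of all tested genes 4733 and 4746 were called, in place of 5314, and 4649 to 5497 with each library left out. With overexpression, leaving out each library gave 4 to 6 of the 10, in place of 7, the lowest without OE-Foxm1 replicate 1. Of all tested genes it gave 5506 to 5836, in place of 6200. The interaction called 103 genes, against 57 with no filter, 169 with all 6 groups in the fit, 229 with voom and 37 to 196 with each library left out; of the 10 genes it called 0 to 1. The cause of these shifts was not tested. Same-numbered libraries correlated above 0.1 in 8 of 21 pairs (-0.04 to 0.18). Most of these were pairs of replicates 2, such as Ang-II with si-Foxm1+Ang-II (0.18) and si-NC with Ang-II (0.166). Pairs with different numbers are not given for reference, and whether replicates 2 share a deviation was not tested. The numbers were not used to pair samples in the main fits. A replicate block changed no call among the 10 genes apart from Lin52 with the siRNA under angiotensin, which passed (-0.18, adjusted p = 0.0405). The counts over all genes with the block are not given here. Depth limits the lowest genes, down to 73 fragments for Mybl2.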
